A study of Mus musculus with 18 samples.

Results

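The cadherins and non-clustered protocadherins were examined as one family of adhesion molecules. Members were the genes whose symbol is Cdh or Pcdh followed by a number (with an optional x), and the clustered alpha, beta and gamma protocadherins were left out. The rule found 35 members among 27179 genes and used no measured value, though the members were chosen with earlier results of these data known. They comprised 5 type I cadherins, 13 type II cadherins, 5 other cadherins, 4 delta-1 protocadherins, 5 delta-2 protocadherins and 3 other protocadherins.

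RNA was sequenced from 18 libraries, 3 per group, of mouse embryonic stem cells differentiated toward spinal motor neurons as embryoid bodies with 1 µM retinoic acid and 0.5 µM of the Hedgehog pathway agonist SAG. Day 2 progenitors came from the Ainv15 iCre line. The 5 day 4 groups came from lines that each carry a single Flag-tagged Hox transgene at the Hprt locus under a doxycycline (Dox) promoter. Control neurons were the iHoxc6 line without Dox, and iHoxc6, iHoxc8, iHoxc9 and iHoxc10 neurons received 3 µg/ml Dox for 48 h from day 2. Each Hox gene was therefore tested in 1 line, all day 4 groups carry a transgene, and control stands for the uninduced state of the iHoxc6 line alone. The cultures hold mostly postmitotic motor neurons together with interneurons. The libraries fell into 4 sequencing runs, and only iHoxc6 against control and iHoxc9 against iHoxc10 lie within a run. For iHoxc8, iHoxc9 and iHoxc10 against control, the Hox gene, the line and the run cannot be told apart. For control against day 2 progenitors, the day, the line and the run cannot be told apart.

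Cadherins are transmembrane proteins that bind cadherins on the neighboring cell in a calcium-dependent manner, and their cytoplasmic tails hold catenins that connect them to actin. Type I cadherins give strong adhesion, and the exchange of Cdh1 (E-cadherin) for Cdh2 (N-cadherin) is a classic step when neural tissue forms. Type II cadherins are expressed in combinations that differ between motor neuron groups and take part in sorting motor neurons into columns and pools. Delta protocadherins bind more weakly than type I cadherins, have tails that do not hold beta-catenin, and are known from axon growth, cell sorting and synapses. Hox factors give motor neurons their position along the body axis.

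The members lie on several chromosomes (GRCm38, 1-based coordinates of the RefSeq annotation). The type II genes Cdh6, Cdh9, Cdh10, Cdh12 and Cdh18 lie within chromosome 15 between positions 13028699 and 23477491. Cdh7, Cdh19 and Cdh20 lie on chromosome 1 between 104768340 and 110977601. Cdh8 (chr8:99024471-99417666), Cdh11 (chr8:102632095-102785493) and Cdh5 (chr8:104101613-104144504) lie in this order on chromosome 8. Among the members that moved most in iHoxc9 neurons, Pcdh17 spans chr14:84443563-84537565 and Pcdh11x spans chrX:120290238-120910622.

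RefSeq promoter windows, taken as the 250 bases before an annotated start (GRCm38.p6), were found for 22 of the 35 members. The following 4 are shown because these genes rose beyond both thresholds in iHoxc9 neurons (see the values for each gene). For each, bases outside its own GENCODE exons could be read. Pcdh11x had no window, and the window of Cdh12 lay over an internal exon. Capitals mark matches on either strand to 3 letter strings known from homeodomain binding sites: TTTAT (reverse complement ATAAA), TGATNNAT (reverse complement ATNNATCA) and the palindrome TAATTA.
Cdh8, chr8:99416472-99416721, minus strand: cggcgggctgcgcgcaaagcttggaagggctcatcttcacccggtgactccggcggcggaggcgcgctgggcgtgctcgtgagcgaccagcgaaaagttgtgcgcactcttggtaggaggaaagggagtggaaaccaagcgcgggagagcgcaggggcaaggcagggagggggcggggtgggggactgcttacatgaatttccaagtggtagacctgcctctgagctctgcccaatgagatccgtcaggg
Cdh9, chr15:16728665-16728755, plus strand: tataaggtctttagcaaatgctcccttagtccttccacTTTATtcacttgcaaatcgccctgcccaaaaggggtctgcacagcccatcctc
Cdh23, chr10:60696491-60696740, minus strand: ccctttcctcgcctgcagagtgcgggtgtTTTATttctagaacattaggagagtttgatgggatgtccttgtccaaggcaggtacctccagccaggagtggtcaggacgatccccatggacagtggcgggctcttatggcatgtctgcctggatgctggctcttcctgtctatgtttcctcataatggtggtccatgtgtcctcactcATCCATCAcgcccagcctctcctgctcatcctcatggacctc
Pcdh17, chr14:84443313-84443562, plus strand: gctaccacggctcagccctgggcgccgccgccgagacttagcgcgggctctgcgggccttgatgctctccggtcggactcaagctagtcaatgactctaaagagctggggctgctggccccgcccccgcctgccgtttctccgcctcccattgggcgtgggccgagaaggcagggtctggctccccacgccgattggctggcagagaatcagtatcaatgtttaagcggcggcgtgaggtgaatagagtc
For Cdh9, the bases after 16728755 belong to an exon of a longer transcript and are not printed. The windows of Cdh8 and Pcdh17 had 64.4% and 64.8% G or C, against a median of 52.4% over 32851 promoter windows, and held none of the 3 strings. Those of Cdh9 and Cdh23 each held 1 match to TTTAT and 1 to TGATNNAT, the latter of Cdh9 outside the printed bases. Over all windows, 37.3% held TTTAT, 7.68% held TGATNNAT and 4.84% held TAATTA. Over the 25 windows of members, the shares were 20.0%, 8.0% and 4.0%. The Cdh8 and Cdh9 windows lie inside the annotated spans of their genes, and the Cdh23 window overlaps the end of its gene's span at 60696513. The span of Cdh9 starts at 16728550, so its printed bases are not upstream of the whole gene. In the Cdh8 window, 80 bases overlap an exon of A330008L17Rik on the opposite strand.

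Total counts were 24498630 to 33168533 per library, so that 3 counts equal 0.0905 to 0.122 CPM (reads scaled by library size), which bounds counting error alone. The targeted Hox gene was at 500 to 532 CPM in iHoxc6, 361 to 410 CPM in iHoxc8, 213 to 236 CPM in iHoxc9 and 425 to 433 CPM in iHoxc10 libraries. Hoxc6 was also at 43.1 to 49.4 CPM in iHoxc10 libraries. The summed level of 6 motor neuron markers was 191 to 351 CPM on day 2 and 3011 to 5034 CPM in the day 4 libraries, most of it Tubb3 (2938 ± 109 CPM in control and 3086 ± 439 CPM in iHoxc9, SD, n = 3). Without Tubb3 the markers stood lower in iHoxc9 than in control, with Isl1 at 52.6 ± 6.43 against 95.5 ± 19.4 CPM, Mnx1 at 38.2 ± 2.22 against 83.3 ± 9.51 CPM, Lhx3 at 30.7 ± 4.57 against 68.3 ± 0.561 CPM and Chat at 12.7 ± 1.67 against 36.2 ± 6.58 CPM. The means of Mnx1, Lhx3 and Chat were below control in the other induced lines too, with Lhx3 at 22.2 ± 6.98 CPM in iHoxc10. Isl1 was not lower there, with means of 108 CPM in iHoxc6, 148 CPM in iHoxc8 and 127 CPM in iHoxc10. Slc18a3 had means of 166, 180 and 267 CPM in these lines, against 224 CPM in control and 128 CPM in iHoxc9. The progenitor marker Sox2 was at 85.1 ± 11.3 CPM in iHoxc9 against 39.7 ± 5.40 CPM in control, and 5 progenitor markers summed to 485 to 540 CPM against 254 to 557 CPM. Sox1, Pax6 and Nes also had higher means in iHoxc9, and Olig2 a lower one, at 30.9 ± 2.43 against 73.3 ± 37.8 CPM. Sox2 had means of 46.2, 65.5 and 52.8 CPM in iHoxc6, iHoxc8 and iHoxc10. The part of these markers in the results of the induced lines was not tested. The 5 epithelial markers summed to 48.1 to 114 CPM on day 2. They summed to 5.31 to 6.01 CPM in control and 4.58 to 5.96 CPM in iHoxc6 libraries, and to 1.72 to 2.69, 1.07 to 2.21 and 1.02 to 1.22 CPM in the iHoxc8, iHoxc9 and iHoxc10 libraries. The 4 floor plate markers summed to 444 to 583 CPM in control libraries, and to 711 to 1007, 677 to 759, 297 to 444 and 538 to 877 CPM in the iHoxc6, iHoxc8, iHoxc9 and iHoxc10 libraries. Replicate 3 of day 2 stood apart in Cdh1 and Cdh3, and replicate 2 of iHoxc8 in several members, as given below. Over all genes, pairs of replicates correlated at r = 0.982 to 0.997 on day 2, 0.987 to 0.995 in control and 0.992 to 0.999 in iHoxc8 (log2(CPM + 1)). In the other groups r was at least 0.995. In day 2 replicate 2, the top gene held 5.76% of the counts, against at most 2.02% in any other library. In bulk RNA, fewer cells of a type and less RNA per cell cannot be told apart.

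Levels are CPM normalized by edgeR's TMM method. Of the 35 members, 27 reached a mean of 1 CPM in at least 1 group. Day 2 progenitors had 14 members at or above that level, control and iHoxc6 had 19 each, and iHoxc8, iHoxc9 and iHoxc10 had 24, 23 and 22. Cdh9 was at or near 0 in 3 of the 6 groups, and Cdh2 ranged from 126 to 345 CPM over all 18 libraries.

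**Figure D1:**
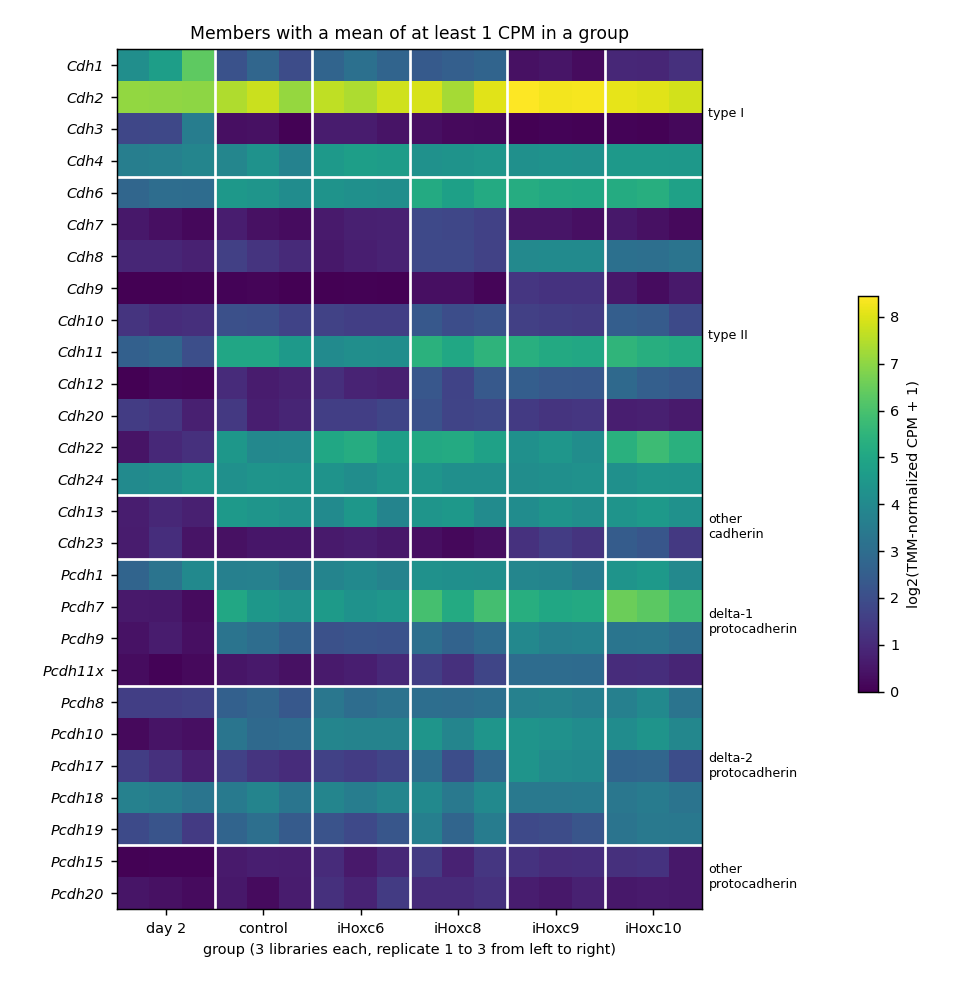
Level of the 27 members with a mean of at least 1 CPM in a group, as log2(TMM-normalized CPM + 1), with 1 row per gene grouped by class and 1 column per library. Cdh2 is bright in each library, Cdh13, Pcdh7, Pcdh9, Pcdh10 and Cdh22 are dark on day 2 and bright on day 4, and Cdh8, Pcdh11x and Pcdh17 are brightest in iHoxc9.

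Per kilobase of exon, Cdh2 had the highest mean level of the members in every group, from 16.1 ± 0.490 CPM per kb (SD, n = 3) on day 2 to 40.3 ± 2.13 CPM per kb in iHoxc9. On day 2 it was followed by Cdh1 at 8.98 ± 7.55 CPM per kb and Cdh24 at 5.01 ± 0.717 CPM per kb. In control it was followed by Cdh24 at 5.40 ± 0.267 CPM per kb and Cdh22 at 4.50 ± 1.01 CPM per kb, which overlapped in their spread. In iHoxc10 the next places went to Cdh22 at 12.1 ± 2.18 CPM per kb and Pcdh7 at 7.08 ± 1.78 CPM per kb. Type I cadherins held 70.3% of the summed level per kilobase on day 2 and 47.7% in control. The share of type II cadherins was 18.8% on day 2 and 31.6% in control, and that of delta-1 protocadherins was 2.99% and 8.79%. Across the 4 induced groups, type II cadherins held from 26.6% in iHoxc9 to 34.2% in iHoxc10, and delta-1 protocadherins from 6.87% in iHoxc6 to 12.6% in iHoxc10. These shares are descriptions with no test.

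**Figure D2:**
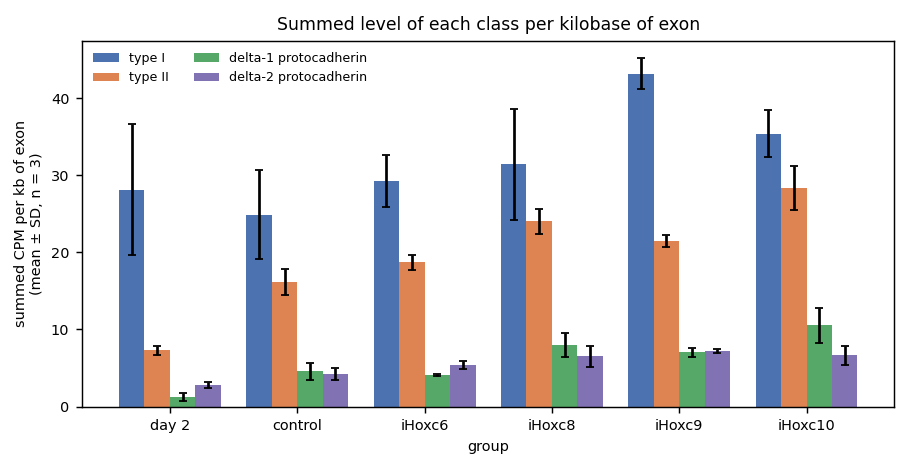
Summed level of the members of 4 classes in CPM per kilobase of exon, by group, as mean with SD over 3 libraries. Type I cadherins are the tallest bar in each group, and type II cadherins go from 7.27 on day 2 to 16.2 in control and 28.3 in iHoxc10.

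The quasi-likelihood test of edgeR was fitted to all 18 libraries at once, over 20944 genes that included 34 of the 35 members (Cdh19 had no count in any library). Verbs of change are used at an adjusted p under 0.01, and the larger changes are those with a log2 fold change beyond 2 as well. Log2 fold changes are given with their SE. P-values measure the spread between libraries within groups, estimated for each gene over all 18 libraries, so that all groups share it. The study describes the 3 libraries per group as independent differentiations. Same-numbered iHoxc9 and iHoxc10 libraries deviated together, as given below.

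From day 2 progenitors to control neurons, the type I cadherins Cdh1 and Cdh3 fell, and 6 of 12 type II cadherins and 7 of 12 protocadherins rose. Of 34 members tested, 16 (47.1%) changed, 14 upward and 2 downward, a share near the 42.4% of all genes tested that changed, 21.2% in each direction. Beyond a log2 fold change of 2 there were 10 members, against 12.6% of all genes. The median log2 fold change was 0.44 over the members and 0.00 over all genes tested. By class, 0 of 5 type I cadherins rose and 2 fell, 6 of 12 type II cadherins rose, and 3 of 4 delta-1 and 3 of 5 delta-2 protocadherins rose.

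Cdh1, the main cadherin of epithelia and of pluripotent cells, was at 17.0, 25.6 and 80.6 CPM on day 2 and at 3.41, 5.97 and 2.88 CPM in control. The groups did not overlap, and the day 2 libraries spread widely, with replicate 3 highest. The log2 fold change was −3.33 ± 0.40 (adjusted p = 2.7e-07). Cdh3 (P-cadherin), its neighbor on chromosome 8, was at 2.46, 2.56 and 11 CPM on day 2 and 0.257, 0.308 and 0.0374 CPM in control, again with day 2 replicate 3 highest (log2 fold change −4.70 ± 0.58, adjusted p = 4.3e-07). The 5 epithelial markers (Epcam, Krt8, Krt18, Cldn6 and Esrp1) moved in the same direction, and their part in the fall of Cdh1 and Cdh3 was not tested. Without day 2 replicate 3 the log2 fold changes were −2.39 and −3.61, and both falls passed the threshold without any one library.

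Among type II cadherins, Cdh22 showed the largest rise, from 0.371, 0.965 and 1.25 CPM on day 2 to 20.9, 14.2 and 14.8 CPM in control (log2 fold change 4.26 ± 0.27, adjusted p = 1.1e-11). Cdh11, known from mesenchyme and from neurons, rose from 4.99, 5.72 and 3.03 CPM to 31.2, 31.0 and 22.3 CPM (log2 fold change 2.62 ± 0.20, adjusted p = 2.1e-10). The summed level of 5 mesenchyme markers was 17.2 to 23.7 CPM on day 2 and 4.34 to 8.16 CPM in control. Most of that difference was Col1a2, at 13.9 ± 5.19 CPM on day 2 and 1.28 ± 0.871 CPM in control. Col3a1 went the other way, from 0.784 ± 0.375 to 3.98 ± 0.895 CPM. The part of mesenchyme cells in the rise of Cdh11 was not tested. Cdh12 rose from 6 summed counts to 67, a ratio of 12.2 (95% exact binomial interval 5.33 to 34.5). The interval covers counting error only, and the adjusted p by edgeR was 6.4e-06. Cdh6 rose from between 5.83 and 7.12 CPM to between 16.2 and 21.8 CPM (log2 fold change 1.56 ± 0.16, adjusted p = 2.3e-08). In each of these 4 genes, every control library lay above every day 2 library. Cdh10 and Cdh8 rose by 1.17 ± 0.24 (adjusted p = 0.00021) and 0.86 ± 0.24 (adjusted p = 0.0051) on the log2 scale. Cdh24 was level, at 15.4 to 20.3 CPM over all 18 libraries.

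Cdh13 (T-cadherin), which is anchored by a lipid and has no cytoplasmic tail, was at 0.606, 0.899 and 0.656 CPM on day 2 and 21.9, 20.0 and 18.1 CPM in control (log2 fold change 4.79 ± 0.23, adjusted p = 7.6e-14). The delta-1 protocadherin Pcdh7 had the largest rise of the members, from 0.505, 0.466 and 0.187 CPM to 32.5, 21.0 and 18.2 CPM (log2 fold change 5.95 ± 0.34, adjusted p = 1.2e-12). A share of 21.1% of its exon bases overlaps 4932441J04Rik on the opposite strand, and the strand setting of the counting was not given in the sources used here, so its level is uncertain. Pcdh10 (OL-protocadherin), a delta-2 protocadherin of axons, rose from 0.168, 0.366 and 0.281 CPM to 8.80, 6.35 and 6.89 CPM (log2 fold change 4.73 ± 0.27, adjusted p = 1.2e-12). Pcdh9 rose from 0.337, 0.566 and 0.281 CPM to 8.48, 7.09 and 5.09 CPM (log2 fold change 4.12 ± 0.26, adjusted p = 8.3e-12). These 4 genes went from below 1 CPM in every day 2 library to above 5 CPM in every control library. Pcdh8, Pcdh19 and Pcdh11x rose by 1.31 ± 0.20, 1.12 ± 0.27 and 1.45 ± 0.45 on the log2 scale (adjusted p = 1.0e-05, 0.0014 and 0.0091). Pcdh15 rose from 5 summed counts to 48, a ratio of 10.5 (95% exact binomial interval 4.20 to 33.8, counting error only). Its adjusted p by edgeR was 7.4e-05. The calls of Cdh8 (highest adjusted p = 0.078, without control replicate 1), Pcdh11x (0.060, without day 2 replicate 2) and Pcdh19 (0.011, without control replicate 2) were lost without single libraries.

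The counts of members that changed in the 4 induced lines against control were not tested against each other. In iHoxc6, 1 of 34 members (2.94%) changed, downward, against 0.587% of all genes tested, 0.363% upward and 0.224% downward. The iHoxc6 count was 7 with DESeq2's Wald test and 0 to 3 with single libraries left out. In iHoxc8, 7 members (20.6%) changed, all upward, against 2.12% of all genes, 1.03% upward and 1.09% downward. In iHoxc9, 13 members (38.2%) changed, 12 upward, against 14.1% of all genes, 6.95% upward and 7.13% downward. In iHoxc10, 13 members (38.2%) changed, 12 upward, against 14.4% of all genes, 6.67% upward and 7.75% downward. The median log2 fold change over the members was 0.27, 0.61, 0.50 and 0.57 in iHoxc6, iHoxc8, iHoxc9 and iHoxc10, and 0.00, 0.02, 0.00 and 0.00 over all genes tested. The 4 comparisons share the control libraries.

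**Figure D3:**
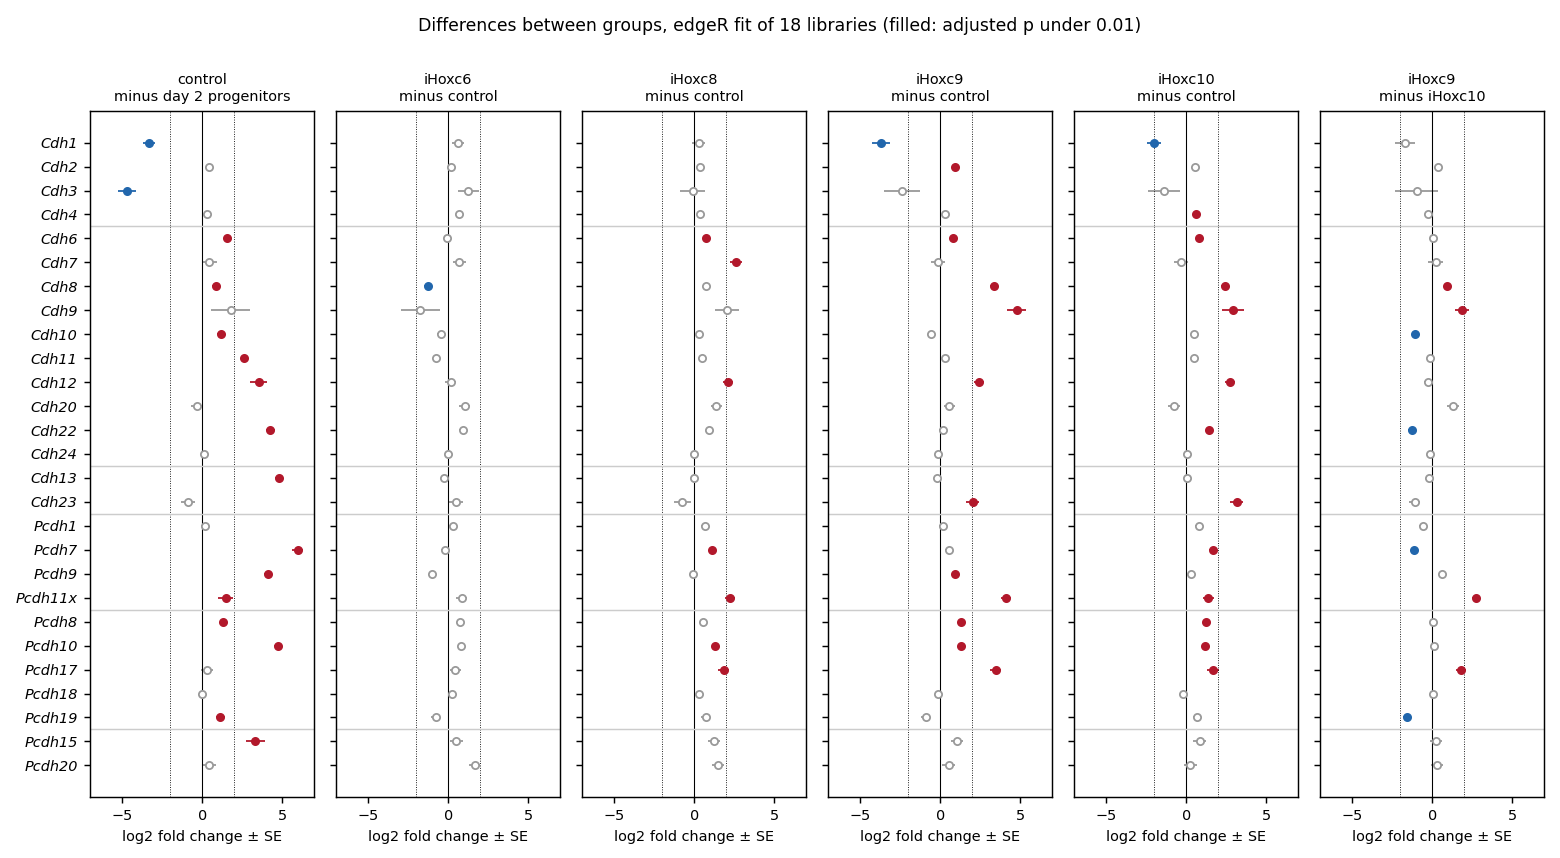
Log2 fold change with SE of the 27 members (rows, by class) in 6 comparisons (panels), with filled points at an adjusted p under 0.01, red where higher and blue where lower in the first group, and dotted lines at a log2 fold change of 2 in either direction. Filled points lie mostly to the right in iHoxc8, iHoxc9 and iHoxc10 against control, and a single one, Cdh8, is filled in iHoxc6.

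Beyond a log2 fold change of 2, the members numbered 0 in iHoxc6 (24 genes or 0.115% of all), 3 in iHoxc8 (0.22% of all genes), 7 in iHoxc9 (2.7%) and 5 in iHoxc10 (1.48%). In iHoxc6 none of the members passed both thresholds by edgeR or by DESeq2. Cdh12 belonged to the larger changes in iHoxc8, iHoxc9 and iHoxc10. Cdh8, Cdh9, Cdh23 and Cdh1 did so in iHoxc9 and iHoxc10, with Cdh1 lower and the rest higher. Pcdh11x did so in iHoxc8 and iHoxc9, Pcdh17 in iHoxc9 and Cdh7 in iHoxc8.

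Of the type I cadherins, Cdh1 was lower still in iHoxc9 and iHoxc10 than in control. It was at 0.313, 0.383 and 0.199 CPM in iHoxc9 and 0.910, 0.860 and 1.26 CPM in iHoxc10, below all 3 control libraries. The log2 fold change was −3.72 ± 0.54 in iHoxc9 (adjusted p = 2.8e-05) and −2.02 ± 0.46 in iHoxc10 (adjusted p = 0.0024). In iHoxc6 and iHoxc8 it was at 5.51 to 7.62 CPM and 4.29 to 5.57 CPM, overlapping the control range of 2.88 to 5.97 CPM. The summed epithelial markers given above were also lower than control in iHoxc9 and iHoxc10, and in iHoxc8 as well, and their part was not tested. Of these 5 markers, 5 had a mean of at least 1 CPM on day 2, 2 in control, 3 in iHoxc6 and 0 in iHoxc8, iHoxc9 and iHoxc10. The iHoxc10 call was lost without control replicate 2, iHoxc10 replicate 1 or iHoxc10 replicate 2, with a highest adjusted p of 0.015.

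Cdh2, the cadherin of the neural tube, was at 171, 216 and 137 CPM in control, 345, 314 and 317 CPM in iHoxc9 and 277, 264 and 229 CPM in iHoxc10. All libraries of both induced groups lay above all control libraries, and the rise passed the threshold in iHoxc9 (log2 fold change 0.90 ± 0.18, adjusted p = 0.00082) and not in iHoxc10 (0.56, adjusted p = 0.025). Without control replicate 3, the lowest of the control libraries, the value in iHoxc9 was 0.72 (adjusted p = 0.012). Cdh4 (R-cadherin), known from retina and brain, was at 13.7, 18.9 and 12.3 CPM in control and 22.7, 22.7 and 21.8 CPM in iHoxc10 (log2 fold change 0.58 ± 0.14, adjusted p = 0.0047). In iHoxc6 it was at 22.8, 25.4 and 24.3 CPM, above every control library, with an adjusted p of 0.012. The iHoxc10 call of Cdh4 was lost without control replicates 1 or 3 or iHoxc10 replicates 1 or 2 (highest adjusted p = 0.036). Cdh3 stayed at or below 0.560 CPM in every day 4 library.

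Some type II cadherins rose in iHoxc8, iHoxc9 and iHoxc10, and of the differences between induced lines only iHoxc9 against iHoxc10 was tested. Of 12 tested, 0 rose and 1 fell in iHoxc6, 3 rose in iHoxc8, 5 rose in iHoxc9 and 5 rose in iHoxc10. Cdh8 was at 2.02, 1.39 and 1.01 CPM in control, 14.6, 15.5 and 15.2 CPM in iHoxc9, and 7.63, 7.49 and 8.39 CPM in iHoxc10. The 3 groups did not overlap, and the replicates of iHoxc9 lay close together. The log2 fold change was 3.34 ± 0.22 in iHoxc9 (10.1-fold, adjusted p = 2.2e-10) and 2.40 ± 0.21 in iHoxc10 (5.26-fold, adjusted p = 6.6e-08). In iHoxc6 neurons, Cdh8 went the other way, to 0.453, 0.622 and 0.764 CPM, below all control libraries (log2 fold change −1.27 ± 0.25, adjusted p = 0.0096). The call in iHoxc6 was lost without control replicate 1 or any one iHoxc6 library (adjusted p from 0.019 to 0.094). In iHoxc8 it was at 2.63, 2.64 and 2.16 CPM, above the control libraries, and did not pass the threshold.

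**Figure D4:**
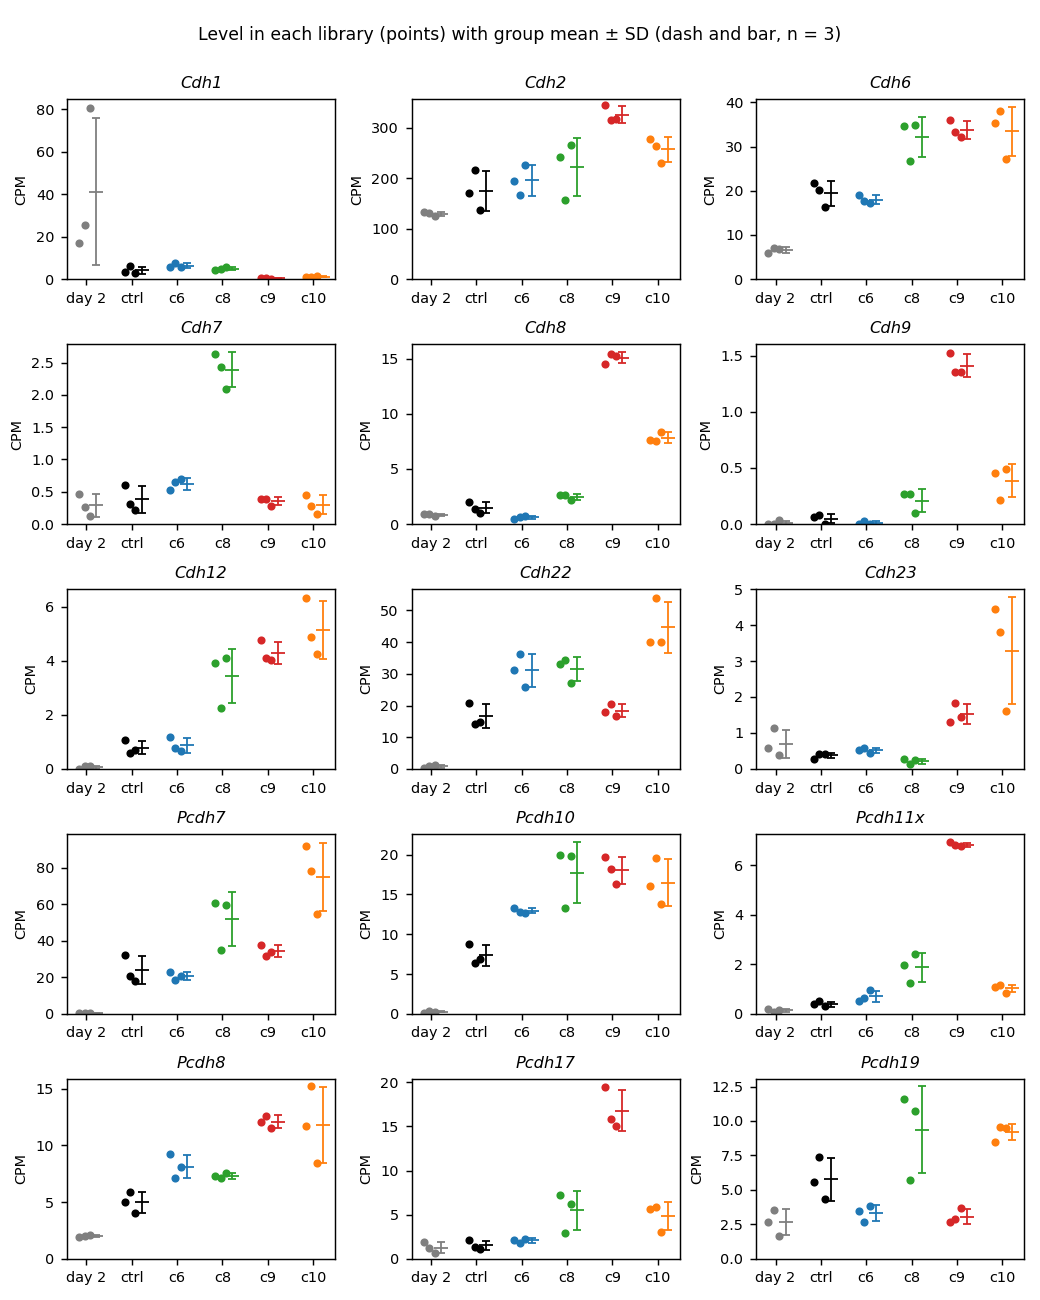
Level of 15 members in CPM in each library (points, replicate 1 to 3 from left to right) with the group mean and SD (dash and bar), for day 2 progenitors, control (ctrl) and the induced lines, labeled c6, c8, c9 and c10. Cdh8, Cdh9, Pcdh11x and Pcdh17 are highest in all 3 iHoxc9 libraries, Cdh7 in all 3 iHoxc8 libraries, and Cdh22 in all 3 iHoxc10 libraries.

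Cdh9, a synaptic cadherin of retina and hippocampus, was close to the counting limit in control, with 4 counts summed over 3 libraries. It had 119 counts in iHoxc9, at 1.53, 1.35 and 1.35 CPM, and 31 counts in iHoxc10, at 0.455, 0.215 and 0.486 CPM. The ratio to control was 29.5 in iHoxc9 (95% exact binomial interval 11.2 to 110) and 8.00 in iHoxc10 (2.83 to 31.2), intervals that cover counting error only. Both passed the test (adjusted p = 2.8e-06 and 0.0031). The iHoxc10 call was lost without control replicate 3 (adjusted p = 0.020), iHoxc10 replicate 1 (0.016) or iHoxc10 replicate 3 (0.012). In iHoxc8 there were 20 counts, a ratio of 4.38 to control (1.47 to 17.6), with no call. Of the exon bases of Cdh9, 6.33% overlap Gm49127 on the opposite strand.

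Cdh12, which lies between Cdh10 and Cdh18 on chromosome 15, was at 1.06, 0.578 and 0.711 CPM in control. It was at 3.93, 2.27 and 4.10 CPM in iHoxc8, 4.77, 4.12 and 4.02 CPM in iHoxc9 and 6.34, 4.87 and 4.25 CPM in iHoxc10. All 9 libraries of these lines lay above the control libraries, and the levels of the 3 lines overlapped. The rises were 4.33-fold, 5.42-fold and 6.50-fold (SE of 0.32 each on the log2 scale, adjusted p = 0.00042, 6.1e-06 and 2.8e-06). In iHoxc6 it was at 0.660 to 1.19 CPM, overlapping control. Cdh6 rose in the same 3 lines. It was at 21.8, 20.2 and 16.2 CPM in control, 34.6, 26.8 and 34.8 CPM in iHoxc8, 35.9, 33.3 and 32.0 CPM in iHoxc9 and 35.3, 37.9 and 27.3 CPM in iHoxc10. Its log2 fold changes were 0.72 ± 0.15, 0.80 ± 0.15 and 0.79 ± 0.15 (adjusted p = 0.0065, 0.00054 and 0.00063). Replicate 2 of iHoxc8 was the lowest of its group in both genes.

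Cdh7, a type II cadherin of the neural tube and neural crest, rose in iHoxc8 neurons. It was at 2.63, 2.44 and 2.10 CPM there and at 0.610, 0.308 and 0.225 CPM in control (log2 fold change 2.61 ± 0.37, 6.10-fold, adjusted p = 0.00027). No other library exceeded 0.695 CPM. The call held without any one library of the 2 groups, and the difference between iHoxc8 and the other induced lines was not tested. Markers of neural crest and Schwann cell precursors summed to 3.54 to 4.88 CPM in iHoxc8 and 3.48 to 4.50 CPM in control, ranges that overlap.

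Cdh22 was at 20.9, 14.2 and 14.8 CPM in control and 40.2, 54.1 and 40.0 CPM in iHoxc10 (log2 fold change 1.43 ± 0.22, adjusted p = 5.7e-05). In iHoxc9 it was at 17.9, 20.5 and 16.7 CPM, inside the control range. In iHoxc6, at 31.2, 36.3 and 25.8 CPM, and in iHoxc8, at 33, 34.4 and 27.2 CPM, every library lay above control, with adjusted p of 0.027 and 0.012. The floor plate markers were higher in iHoxc6 and iHoxc8 and lower in iHoxc9, with iHoxc10 overlapping control, and their part in the level of Cdh22 was not tested. Cdh11 in iHoxc6, at 15.5, 17.1 and 16.7 CPM, lay below the control libraries at 31.2, 31.0 and 22.3 CPM and did not pass the threshold (adjusted p = 0.027). Cdh20 was between 0.527 and 3.34 CPM on day 4, with its highest mean, 2.71 CPM, in iHoxc8 (adjusted p = 0.013 against control). Cdh18 never reached a mean of 1 CPM, and it is named because it passed the test in iHoxc9, at 1.06, 1.29 and 0.478 CPM against 0.257, 0.308 and 0.262 CPM in control (log2 fold change 1.78 ± 0.44, adjusted p = 0.0049). That call was lost without control replicate 1, control replicate 3, iHoxc9 replicate 1 or iHoxc9 replicate 2. Of the 5 type II genes on chromosome 15, Cdh6, Cdh9, Cdh12 and Cdh18 rose in iHoxc9 and Cdh10 did not.

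Cdh23, which forms the tip link of hair cells together with Pcdh15, was at 0.289, 0.424 and 0.412 CPM in control, 1.29, 1.82 and 1.43 CPM in iHoxc9 and 4.45, 3.80 and 1.62 CPM in iHoxc10. Both induced groups lay above control and overlapped each other (log2 fold change 2.02 ± 0.41, adjusted p = 0.0010, and 3.14 ± 0.40, adjusted p = 8.6e-06). Cdh13 remained between 13.0 and 22.6 CPM in all day 4 libraries and changed in none of the induced lines. Pcdh15 was at 0.514 to 0.616 CPM in control and between 0.446 and 1.75 CPM in the induced lines, with no call.

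Of the 4 delta-1 protocadherins, 2 rose in each of iHoxc8, iHoxc9 and iHoxc10, and 0 in iHoxc6. Pcdh11x, the X-linked member, was at 0.385, 0.501 and 0.299 CPM in control and at 6.92, 6.83 and 6.77 CPM in iHoxc9, a 17.2-fold rise (log2 fold change 4.10 ± 0.31, adjusted p = 2.3e-09). It was at 1.98, 1.24 and 2.41 CPM in iHoxc8 (log2 fold change 2.24 ± 0.32, adjusted p = 0.00024) and 1.09, 1.15 and 0.851 CPM in iHoxc10 (1.38 ± 0.34, adjusted p = 0.0045). The 3 iHoxc9 libraries stood far above all others, and all libraries of the other 2 lines stood above control. The iHoxc10 call was lost without control replicate 1, control replicate 3, iHoxc10 replicate 1 or iHoxc10 replicate 2 (highest adjusted p = 0.029). In iHoxc6 it was at 0.523, 0.622 and 0.973 CPM, all above control, with no call.

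Pcdh7 was at 32.5, 21.0 and 18.2 CPM in control, 60.9, 34.9 and 59.7 CPM in iHoxc8 and 92.2, 78.0 and 54.9 CPM in iHoxc10. Every library of both lines lay above control, and replicate 2 of iHoxc8 and replicate 3 of iHoxc10 were the lowest of their groups. The log2 fold change was 1.12 ± 0.23 in iHoxc8 (adjusted p = 0.0062) and 1.65 ± 0.23 in iHoxc10 (adjusted p = 2.9e-05). In iHoxc9, at 37.7, 31.7 and 33.9 CPM, the range overlapped that of control. Pcdh9 rose in iHoxc9, from 8.48, 7.09 and 5.09 CPM to 14.2, 11.8 and 12.5 CPM (log2 fold change 0.89 ± 0.20, adjusted p = 0.0019), a call lost without control replicate 3 (adjusted p = 0.025) or iHoxc9 replicate 1 (0.014). In iHoxc6 it was at 3.31, 3.58 and 3.40 CPM, below all control libraries, with an adjusted p of 0.0103, just outside the threshold. Pcdh1 lay between 9.28 and 22.8 CPM on day 4 and was not called.

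The delta-2 protocadherins Pcdh8, Pcdh10 and Pcdh17 rose in iHoxc9 and iHoxc10, and Pcdh10 and Pcdh17 in iHoxc8, of 5 tested. Pcdh17, known from synapses of the basal ganglia, was at 2.09, 1.39 and 1.09 CPM in control and 19.4, 15.9 and 15.0 CPM in iHoxc9, a 10.9-fold rise (log2 fold change 3.45 ± 0.35, adjusted p = 1.8e-07). It was at 7.22, 2.94 and 6.25 CPM in iHoxc8 and 5.60, 5.91 and 3.00 CPM in iHoxc10 (log2 fold changes 1.84 ± 0.35 and 1.66 ± 0.35, adjusted p = 0.0031 and 0.0013). The iHoxc9 libraries lay above all others, and iHoxc8 and iHoxc10 overlapped each other. Without control replicate 3 the iHoxc10 value was 1.49 (adjusted p = 0.012).

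Pcdh10 was at 8.80, 6.35 and 6.89 CPM in control and between 13.3 and 20.0 CPM in the libraries of iHoxc8, iHoxc9 and iHoxc10. Its log2 fold changes were close together, at 1.27 ± 0.19, 1.29 ± 0.19 and 1.16 ± 0.19 (adjusted p = 0.00033, 2.3e-05 and 9.7e-05). In iHoxc6 it was at 13.3, 12.8 and 12.7 CPM, above every control library, with an adjusted p of 0.022. Pcdh8 was at 5.04, 5.89 and 4.04 CPM in control, 12.1, 12.6 and 11.5 CPM in iHoxc9 and 11.7, 15.2 and 8.47 CPM in iHoxc10 (log2 fold changes 1.27 ± 0.19 and 1.24 ± 0.19, adjusted p = 3.6e-05 and 6.3e-05). Of its exon bases, 9.61% overlap Gm9748 on the opposite strand. Pcdh19, the X-linked delta-2 member, was at 5.56, 7.39 and 4.34 CPM in control and was not called against it in any induced line in the fit of 18 libraries. In iHoxc9 its log2 fold change of −0.91 (adjusted p = 0.017) passed the threshold with genes of a count above 0 in any library (0.0088), with only the compared groups in the fit (0.0096) and with DESeq2's Wald test (0.0050). Pcdh18 was level, at 8.43 to 15.0 CPM over all libraries, and Pcdh20 reached at most 1.77 CPM, in iHoxc6.

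In the iHoxc8 comparison, the calls of Cdh6, Pcdh7 and Pcdh17 were lost without control replicate 3, iHoxc8 replicate 1 or iHoxc8 replicate 3, which left 4 of the 7 members called (highest adjusted p = 0.074, 0.068 and 0.038). Without iHoxc8 replicate 2, the library that stood apart, 7 members were called. Without iHoxc8 replicate 3, 1 member in place of 3 passed both thresholds. In the iHoxc10 comparison, 3 in place of 5 passed both without iHoxc10 replicate 1.

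iHoxc9 and iHoxc10 neurons, compared within a run, differed in 8 of 34 members (23.5%), against 4.99% of all genes tested. There were 4 higher in iHoxc9 and 4 higher in iHoxc10, against 2.6% and 2.4% of all genes, and Pcdh11x alone passed both thresholds, against 1.31%. Median log2 fold changes were 0.05 over the members and 0.03 over all genes. The members higher in iHoxc9 were Pcdh11x (log2 fold change 2.73 ± 0.28, 6.61-fold, adjusted p = 4.0e-07), Pcdh17 (1.79 ± 0.32, 3.46-fold, adjusted p = 0.00051), Cdh9 (1.87 ± 0.42, adjusted p = 0.0053) and Cdh8 (0.95 ± 0.19, adjusted p = 0.0019). These are genes that rose against control in both lines, with the iHoxc9 libraries above all iHoxc10 libraries.

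The members higher in iHoxc10 were Pcdh19, Cdh22, Pcdh7 and Cdh10. Pcdh19 was at 2.66, 2.85 and 3.66 CPM in iHoxc9 and 8.51, 9.53 and 9.48 CPM in iHoxc10 (log2 fold change −1.59 ± 0.27, adjusted p = 0.00036), on either side of the control libraries. Cdh22 differed by −1.28 ± 0.21 (adjusted p = 0.00027) and Pcdh7 by −1.12 ± 0.23 (adjusted p = 0.0022). Cdh10 was at 2.03, 1.91 and 1.75 CPM in iHoxc9 and 4.80, 4.30 and 2.75 CPM in iHoxc10 (log2 fold change −1.06 ± 0.23, adjusted p = 0.0032). In each of the 8 genes, the 3 libraries of one line lay on one side of the 3 of the other.

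Same-numbered iHoxc9 and iHoxc10 libraries deviated together, and in a fit of these 6 libraries with the replicate number as a block 17 members were called in place of 8. The 8 stayed among them. This fit was chosen after the data were seen and takes its spread from the 6 libraries alone. Its adjusted p by edgeR went down to 2.4e-77 (Cdh22). The 9 that joined were Cdh1 (log2 fold change −1.73), Cdh4 (−0.34), Cdh11 (−0.20), Cdh13 (−0.25), Cdh23 (−1.13) and Pcdh1 (−0.64), lower in iHoxc9, and Cdh2 (0.31), Cdh20 (1.26) and Pcdh9 (0.58), higher in iHoxc9. Of these, Cdh2, Cdh4, Cdh11 and Cdh13 passed in no other setting. Their adjusted p by edgeR in the fit of 18 libraries was 0.32, 0.25, 0.69 and 0.58. In the fit of 18 libraries, Cdh8 and Cdh9 lost their calls without single libraries (Cdh9 without any one of the 6, Cdh8 without any but iHoxc9 replicate 1), Cdh10 without any but iHoxc10 replicate 3, and Pcdh7 without iHoxc9 replicate 2 or iHoxc10 replicates 1 or 2. The count was 4 without any one of those last 3 libraries and 5 without iHoxc9 replicate 3.

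The catenins, which couple cadherin tails to actin, were followed as a list of 9 genes. From day 2 to control, 6 rose and 2 fell, where 42.4% of all genes changed. Of the 6, Ctnna3 rests on few counts, at 0 CPM on day 2 and 0.113 ± 0.105 CPM in control (adjusted p = 0.0093 by edgeR). It is named after its values were seen. Ctnna2, the alpha-catenin of neurons, rose from 7.48 ± 2.22 to 121 ± 19.3 CPM (SD, n = 3), with a log2 fold change of 4.02 ± 0.18 and an adjusted p of 5.3e-14. Ctnnd2, the delta-catenin of neurons, rose from 5.67 ± 0.805 to 26.1 ± 4.69 CPM (log2 fold change 2.20 ± 0.16, adjusted p = 7.6e-11). Against control, 0 catenins changed in iHoxc6, 1 rose in iHoxc8, 2 rose and 1 fell in iHoxc9 and 2 rose in iHoxc10, where 0.587%, 2.12%, 14.1% and 14.4% of all genes changed. The 2 that rose in iHoxc9 and iHoxc10 were again Ctnna2, at 241 ± 5.20 and 244 ± 11.4 CPM (log2 fold change 1.00 and 1.01), and Ctnnd2, at 45.5 ± 1.76 and 61.0 ± 7.82 CPM (0.80 and 1.22).

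The shares of all genes just given are also the background of the next lists. Of the 5 genes for nectins and afadin, which act at the same junctions, 1 rose from day 2 to control, 1 fell in iHoxc9 and 1 rose in iHoxc10, where Nectin1 went from 49.0 ± 10.9 to 87.7 ± 6.77 CPM (log2 fold change 0.84 ± 0.18, adjusted p = 0.0016). Of 5 known repressors of Cdh1, 1 rose and 1 fell from day 2 to control, 1 rose and 1 fell in iHoxc9, and 1 fell in iHoxc10. Zeb2 was the one that rose in iHoxc9, from 29.9 ± 7.22 to 81.7 ± 6.87 CPM (log2 fold change 1.45 ± 0.20, adjusted p = 1.4e-05), after a fall from day 2 to control (−0.93 ± 0.20, adjusted p = 0.00039). It was also higher in iHoxc9 than in iHoxc10, at 39.1 ± 4.24 CPM (log2 fold change 1.06 ± 0.20, adjusted p = 0.00093). Zeb1 rose from day 2 to control, from 43.1 ± 4.31 to 74.1 ± 16.2 CPM (0.78 ± 0.15, adjusted p = 9.0e-05). Nectin4 and Twist1 stayed under a mean of 1 CPM in every group and are named after their values were seen. Twist1 was the repressor that fell in iHoxc9 (log2 fold change −4.07 ± 0.51, adjusted p = 3.4e-06) and in iHoxc10 (−1.38 ± 0.37, adjusted p = 0.0079). Nectin4 was the nectin that rose from day 2 to control (1.97 ± 0.48, adjusted p = 0.0013) and fell in iHoxc9 (−2.16 ± 0.50, adjusted p = 0.0028).

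The 8 members that never reached a mean of 1 CPM were Cdh5, Cdh15, Cdh16, Cdh17, Cdh18, Cdh19, Cdh26 and Pcdh12. Cdh5 and Pcdh12, cadherins of blood vessels, were at most 0.472 and 0.202 CPM in any library, where 6 endothelial markers summed to 3.37 to 4.75 CPM on day 2 and at most 2.27 CPM on day 4. Cdh15, the cadherin of muscle, was between 0.233 and 1.03 CPM, and 4 muscle markers summed to 2.35 to 12.9 CPM. Most of that sum was Acta1, with its highest mean of 8.39 ± 3.81 CPM on day 2. The group means of Myog, Myod1 and Myf5 were at most 0.380, 0.0319 and 0.0104 CPM. Cdh16 had a single count in 1 iHoxc8 library, and Cdh17 and Cdh26 did not exceed 0.105 and 0.239 CPM.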

How the data were processed

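Reads were aligned by the authors with STAR (2.7.0c), assigned to RefSeq genes of mm10 with featureCounts, and deposited as read counts per gene without normalization. RefSeq genes with the same Entrez identifier were merged by the authors, and the strand setting is not given in the sources used here. Groups and replicate numbers were taken from the labels of the 18 libraries. Symbols and coordinates came from RefSeq (GRCm38.p6), and exon lengths and overlaps from GENCODE.

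Counts were normalized with TMM and tested with the quasi-likelihood test of edgeR 4.0.16 in R 4.3.3, in a fit of 18 libraries by group, over 20944 genes with at least 1 count in an iHox library. Benjamini-Hochberg adjustment covered all genes tested, and the SE was derived from the F statistic. The adjusted p of 0.01 and the log2 fold change of 2 are the thresholds of the study. Members with a mean of at least 1 CPM in a group were named, and values per library were given where one was called. Of the pathway genes, up to 2 per list with the largest called change and 1 CPM in a group were named, and 1 list is not reported here. The members and lists were chosen with earlier results of these data known. Ratios of genes with few counts were computed from summed counts with exact binomial intervals (95%), which cover counting error only. Promoter windows came from the RefSeq table, without the 50 bases after the start, and can still lie within a gene's span. The code was tested on simulated data.

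Replicate numbers of iHoxc9 and iHoxc10 paired the libraries by their deviations from the group means over 13192 genes (r = 0.46, 0.42 and 0.54 for numbers 1, 2 and 3, each the best match). In the other comparisons the numbers did not pair. Alternatives were DESeq2's Wald test (1.42.0), DESeq2's size factors in edgeR, at least 10 counts in 3 libraries, a count above 0 in any library, fits of only the compared groups, a replicate block, and fits without each library. The fit of iHoxc9 and iHoxc10 alone with a replicate block was chosen after seeing the data.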

Additional observations from a re-analysis of the deposited data

Results flagged for a closer look

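The following 8 members differed between iHoxc9 and iHoxc10 neurons by the direct test of the 2 lines (edgeR, adjusted p under 0.01), which is also the test of the difference between their effects against the shared control. Expressed as iHoxc9 minus iHoxc10, the log2 fold changes were 2.73 for Pcdh11x, 1.87 for Cdh9, 1.79 for Pcdh17 and 0.95 for Cdh8. They were −1.06 for Cdh10, −1.12 for Pcdh7, −1.28 for Cdh22 and −1.59 for Pcdh19. The 2 lines share a sequencing run and differ in the Hox gene and the line, which cannot be told apart.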

How the results depend on the processing

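Of 57 log2 fold changes of named members past an adjusted p of 0.01, 39 passed it in every alternative run, 18 were lost in at least 1, and none changed sign by edgeR or DESeq2. The losses numbered 18 when a library was left out, 9 when only the compared groups were fitted, 2 with the stricter count filter, 2 with the replicate block and 1 each with DESeq2's size factors and its Wald test. A further 24 passed only in an alternative. The count in iHoxc6 against control, 1 member, became 2 with DESeq2's size factors, 2 with any gene above 0 counts, 0 with the stricter filter, 0 with the replicate block, 0 with only the compared groups and 7 with DESeq2's Wald test, which added Cdh4, Cdh11, Cdh22, Pcdh9, Pcdh10 and Pcdh20. The count in iHoxc9 against iHoxc10, 8 members, became 17 in the fit of these 2 lines with a replicate block. With each library left out, the counts ranged from 14 to 16 (control against day 2), 0 to 3 (iHoxc6), 4 to 9 (iHoxc8), 10 to 14 (iHoxc9), 9 to 13 (iHoxc10) and 4 to 7 (iHoxc9 against iHoxc10). With the log2 fold change of 2 as well, they ranged from 10 to 11, 0 to 0, 1 to 4, 6 to 8, 3 to 5 and 1 to 1. Members with a mean of at least 1 CPM ranged from 14 to 14 (day 2), 18 to 19 (control), 19 to 19 (iHoxc6), 24 to 24 (iHoxc8), 23 to 24 (iHoxc9) and 20 to 21 (iHoxc10). Control against day 2 for Pcdh1, 0.17 on the log2 scale, ranged from −0.13 (without day 2 replicate 1) to 0.64 (without day 2 replicate 3), and the last passed the test. Against control and day 2, the replicate numbers share only a number, and the block changed the calls of Pcdh11x (control against day 2) and Cdh8 (iHoxc6). The cause of these changes was not tested. Levels below about 0.12 CPM rest on 3 counts or fewer.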
